A study of Xenopus laevis with 6 samples.

Results

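The genes described here are the cytokine, chemokine and innate signalling genes of Xenopus laevis. They were chosen by a rule on name and reads. The rule does not use the comparison between media, but it was set with earlier results of these data known. A symbol had to start as a CXC or CC chemokine ligand or receptor, an interleukin or its receptor, a TNF ligand, receptor or induced protein, a Toll-like receptor, MyD88, NF-kB subunit, Janus kinase (JAK), STAT factor or SOCS inhibitor. The mean count over the 6 samples had to be 10 or more, and the product name could not hold the word interferon. Of 42638 genes in the count table, 151 had a matching symbol and 79 of these reached the count limit. The 79 members are copies of 51 genes, with 45 on the L and 34 on the S subgenome as their suffixes name them. The other 72 fell below the count limit and 0 were removed for their product name.

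Whole wild-type embryos were sequenced at stage 35, as 3 samples that had been moved to 0.75X MMR at stage 9 and 3 samples that had stayed in 0.1X MMR. MMR is Marc's Modified Ringer's, a salt solution in which frog embryos are kept, so that the comparison asks whether a higher salt concentration after the blastula changes transcript levels. All embryos were fertilized in 0.1X MMR and kept at 14 °C for 7 days, and each sample is a pool of 10 embryos. Nothing in the labels says which pools share parents, so that p-values measure the spread between these pools. Values are expected counts, that is, reads per gene as estimated by a program that divides reads fitting several genes between them. They are given below as CPM (counts scaled to the library total) after normalisation of library sizes, which compares 1 gene between pools but not 1 gene with another, since transcript lengths were not used. The pools held 5024957 to 7045215 counts, of which the members took 0.150% to 0.162%.

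Chemokines are small secreted proteins that guide migrating cells through receptors that cross the membrane many times, and CXCL12 with its receptor CXCR4 guides neural crest cells, germ cells and muscle precursors in vertebrate embryos. Interleukins signal through paired receptor chains. Many of these chains bind JAK kinases, which phosphorylate STAT factors that then enter the nucleus. Some SOCS proteins are induced by STATs and damp the same receptors. Toll-like receptors recognise microbial products and signal through the adaptor MyD88 to NF-kB, which TNF receptors also reach. Most cells of an embryo carry receptors, kinases and STATs, whereas inflammatory ligands are made in quantity by activated blood and barrier cells.

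Among rows matched by symbol, reads came mostly from receptors and from the intracellular chain, and little from inflammatory ligands. Left out are 75 rows that only the product name ties to these families. They summed to 1854 to 1871 CPM in 0.75X MMR and 1879 to 1931 CPM in 0.1X MMR. All members together summed to 1546 to 1597 CPM in 0.75X MMR and 1506 to 1595 CPM in 0.1X MMR. All 4 NF-kB rows, 4 of 5 JAK rows, 8 of 10 STAT rows, 13 of 16 SOCS rows and 8 of 10 rows of TNF-induced proteins reached the count limit. Receptors of interleukins reached it in 17 of 28 rows and TNF receptors in 10 of 15 rows. Among rows grouped as ligands, 6 of 13 CXC ligands, 3 of 8 TNF ligands, 1 of 16 interleukins and 0 of 5 CC ligands reached it. The 16 were grouped by symbol and include il4i1.L, which is not an interleukin. Chemokine receptors did so in 2 of 8 rows for CXC and 0 of 5 for CC receptors, and Toll-like receptors with MyD88 in 3 of 8 rows. The families were not tested against each other. Of all counts of members, STAT factors took 19.2%, interleukin receptors 19.0%, CXC ligands 18.5% (most of them from cxcl12.L), SOCS inhibitors 11.1% and JAK kinases 9.80%, whereas the 1 interleukin took 1.61% and TNF ligands 0.523%. Counts depend on transcript length as well as level, so that these numbers say which rows were read and do not order levels.

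**Figure D1:**
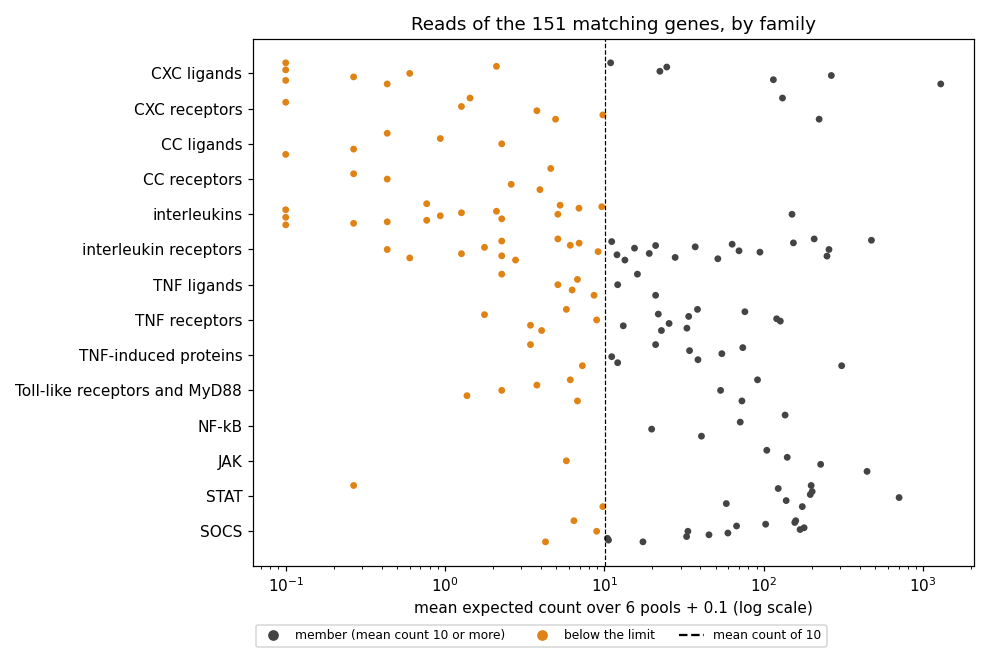
Mean expected count over the 6 pools, with 0.1 added and on a log scale, of the 151 matching genes, in 1 row per family. Dark points are the 79 members, orange points the 72 genes below the limit and the dashed line is the mean count of 10. All 10 CC ligands and receptors and 15 of 16 rows grouped by symbol as interleukins lie left of the line, and all 4 NF-kB rows right of it.

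Several inflammatory and anti-inflammatory cytokine genes were at or near 0 in both media, and those given here were picked after their values had been seen. Interleukin 1 beta, a fever and neutrophil signal, had 1, 2 and 1 counts for il1b.L in the 3 pools in 0.75X MMR against 0, 1 and 2 counts in those in 0.1X MMR. The interleukin 6 gene il6.L had 0, 2 and 0 counts in 0.75X MMR against 0, 2 and 0 counts in 0.1X MMR. il10.L, a copy of the gene for the anti-inflammatory interleukin 10, had 0 counts in all 6 pools, as did cxcl10.S, ccl20.L and 5 further rows. A count of 0 allows up to 3 counts, or a CPM of 0.428 to 0.604 depending on the pool, and this floor covers counting error only. Of the 72 rows below the limit, 35 were at 0 in at least 1 pool and 26 had enough reads to be tested. Among these 26, 0 passed an FDR of 0.05 by edgeR and 2 had an unadjusted p under 0.05, which 4.39% of all tested genes had. One was il2rg.L, the receptor chain shared by several lymphocyte interleukins, with 4, 4 and 3 counts in 0.75X MMR against 11, 7 and 7 counts in 0.1X MMR. The other was tnfrsf9.L, a costimulatory TNF receptor, with 6, 6 and 13 counts in 0.75X MMR against 2, 2 and 5 counts in 0.1X MMR. The log2 fold change of 0.75X over 0.1X MMR by edgeR was -1.13 ± 0.48 (SE) for il2rg.L and 1.45 ± 0.60 (SE) for tnfrsf9.L, with an FDR of 1.00 for both.

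No member differed between media past the threshold. In the quasi-likelihood test of edgeR, with p-values adjusted by Benjamini-Hochberg over the 28075 genes tested, 0 of 79 members had an FDR under 0.05, and the lowest FDR of a member was 1.00. Over all tested genes 5 passed, or 0.0178%. An unadjusted p under 0.05 was reached by 2 of 79 members (2.53%), against 4.39% of all tested genes, and these were socs7.S and myd88.L. With 1 pool left out, this number was lowest at 1 without the first pool in 0.75X MMR, where 4.16% of all tested genes had such a p. It was highest at 4 without the first pool in 0.1X MMR, where 4.31% of all tested genes had such a p. DESeq2 called 0 members as well, with 0 members at an unadjusted p under 0.05, against 1.49% of all genes in that fit. limma-voom called 0, with 2 at an unadjusted p under 0.05, against 4.43% of all genes in that fit. The 3 pools of 0.75X MMR lay beyond all 3 of 0.1X MMR in 6 members (7.59%), against 9.77% of all tested genes. Of these 6, 5 were higher in 0.75X MMR, which is 6.33% of members against 4.82% of all tested genes. The shares of members are thus near those of the whole table.

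Fold changes were small on the scale of the replicate error. They spanned -0.40 (tnfaip6.S) to 0.61 (il17ra.S) on the log2 scale, both in rows with a mean of 11.0 to 11.9 counts, and il17ra.S was the only member beyond 0.5 in either direction. The median over members was 0.05 and that over all tested genes -0.00144. In absolute size the medians were 0.104 for members and 0.113 for all tested genes, which include rows below the count limit of the members. The log2 fold change was above 0 in 52 of 79 members (65.8%), against 49.6% of all tested genes. With 1 pool left out this number lay between 45 without the second pool in 0.1X MMR and 56 without the first. Members share pools and pathways and are not independent, and the count of signs was not tested.

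**Figure D2:**
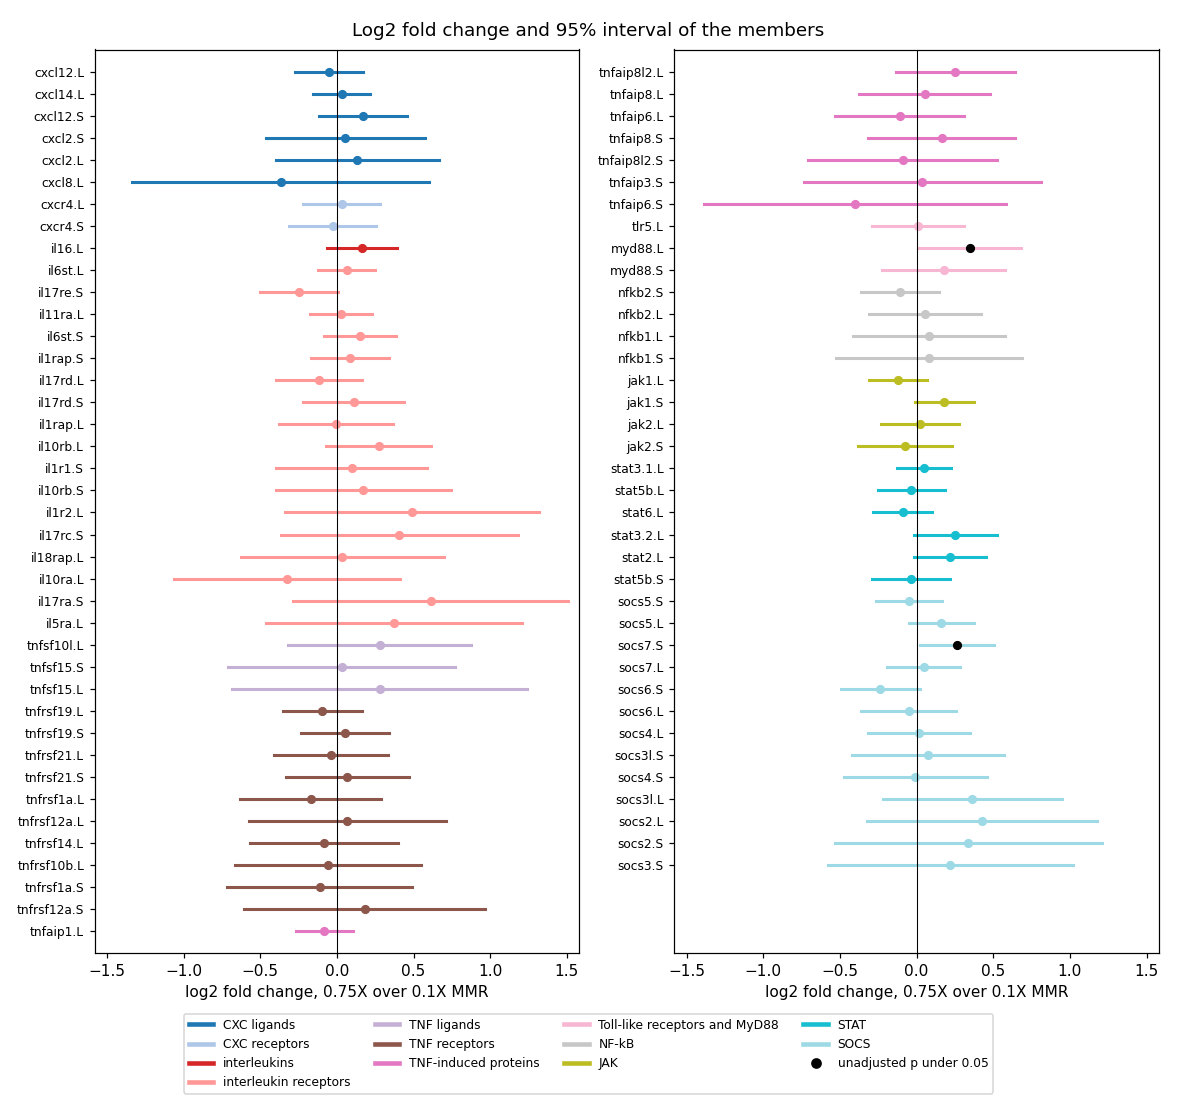
Log2 fold change of 0.75X over 0.1X MMR (x axis) of 77 of the 79 members, by family and, within it, by falling reads. Points are estimates by edgeR, lines are 95% intervals, colours are families and black points mark socs7.S and myd88.L, the 2 members with an unadjusted p under 0.05. All other intervals include 0.

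Among the CXC ligands, cxcl12.L had the most reads of all members, and neither copy separated the media. It lies on chromosome 7L at 65757992 to 65804625 (genome version 10.1). Its level was 185, 204 and 244 CPM in the 3 pools in 0.75X MMR against 234, 197 and 225 CPM in those in 0.1X MMR. The pools of the media interleave, and the highest and the lowest of the 6 were both in 0.75X MMR. edgeR gave a log2 fold change of -0.05, with a 95% interval of -0.27 to 0.17. The homeolog cxcl12.S had 20.7, 17.6 and 22.4 CPM in 0.75X MMR against 19.8, 15.6 and 18.5 CPM in 0.1X MMR, with an interval of -0.12 to 0.46 around 0.17. cxcl14.L, a chemokine of skin and other epithelia in mammals, was the steadiest of the family, with 46.2, 42.4 and 45.7 CPM in 0.75X MMR against 44.1, 41.8 and 45.7 CPM in 0.1X MMR. Its interval, -0.16 to 0.22, bounds any change to less than 1.2-fold in either direction.

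The ligands that attract neutrophils in mammals had few reads. cxcl2.L had 20, 25 and 24 counts in 0.75X MMR against 24, 21 and 19 counts in 0.1X MMR, and cxcl2.S had 28, 23 and 23 counts in 0.75X MMR against 31, 26 and 16 counts in 0.1X MMR. cxcl8.L, for interleukin 8, had 7, 16 and 5 counts in 0.75X MMR against 15, 10 and 12 counts in 0.1X MMR, and the second pool in 0.75X MMR held more than its 2 fellow pools together. Its interval of -1.34 to 0.60 leaves a change of more than 2-fold undecided.

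The only CXC receptor among the members was cxcr4, in both copies. cxcr4.L had 39.2, 40.8 and 32.6 CPM in 0.75X MMR against 40.7, 31.4 and 38.0 CPM in 0.1X MMR. cxcr4.S had 24.8, 17.9 and 22.1 CPM in 0.75X MMR against 22.1, 20.2 and 24.2 CPM in 0.1X MMR. Levels of the media overlap in both copies, and the log2 fold changes were 0.03 (interval -0.22 to 0.28) and -0.03 (interval -0.31 to 0.26). The other receptor of CXCL12, ackr3, which binds the ligand without signalling through G proteins, is outside the name rule and did not separate the media either, with 29.0 ± 1.3 CPM in 0.75X MMR against 26.2 ± 5.1 CPM in 0.1X MMR (SD, n = 3 each) for ackr3.L. For cxcl12.L, both cxcr4 copies and ackr3.L, the difference between the means of the media was smaller than the larger of their 2 SDs.

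The 1 interleukin matched by symbol that passed the count limit was il16.L. Its precursor protein is made by many cells, and the cleaved end attracts CD4 cells in mammals. It had 26.0, 25.9 and 27.7 CPM in 0.75X MMR against 22.6, 26.2 and 22.3 CPM in 0.1X MMR. One pool in 0.1X MMR reached the range of 0.75X MMR, and the log2 fold change was 0.16 with an interval of -0.07 to 0.39.

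Receptors of the interleukins were the most varied family, with 17 members, of which 13 had a log2 fold change above 0 and 4 below, and 0 passed the FDR limit. il6st encodes gp130, the signalling chain shared by interleukin 6, interleukin 11 and LIF. il6st.L had 84.1, 76.8 and 80.7 CPM in 0.75X MMR against 82.5, 76.8 and 71.5 CPM in 0.1X MMR, and il6st.S had 35.6, 37.6 and 35.8 CPM in 0.75X MMR against 30.3, 38.6 and 29.4 CPM in 0.1X MMR. Media overlap in both copies. il11ra.L, the chain that joins gp130 to bind interleukin 11, had 42.1 ± 2.0 CPM in 0.75X MMR against 41.4 ± 3.8 CPM in 0.1X MMR (SD, n = 3 each). The chain that binds interleukin 6 itself stayed below the count limit, with 5, 3 and 6 counts for il6r.S in 0.75X MMR against 8, 3 and 5 counts in 0.1X MMR.

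il17re.S had the lowest unadjusted p of the receptors. Its protein is a receptor chain for interleukin 17C, an epithelial cytokine in mammals. The level was 32.0, 43.3 and 42.5 CPM in 0.75X MMR against 41.7, 50.6 and 47.7 CPM in 0.1X MMR. The first pool in 0.75X MMR was the lowest of all 6 and the other two lay between the lowest and the next pool in 0.1X MMR. edgeR gave -0.25 ± 0.12 (SE), with an interval of -0.50 to 0.01 and an unadjusted p of 0.058 (FDR 1.00). The ligand il17c was nearly unread, with 1, 3 and 1 counts for il17c.L in 0.75X MMR against 2, 2 and 4 counts in 0.1X MMR. il17rc.S, another chain of the family, lies 10.6 kb from il17re.S on chromosome 4S and had the opposite sign, 0.41 ± 0.36 (SE), from 21, 22 and 21 counts in 0.75X MMR against 28, 17 and 5 counts in 0.1X MMR. The third pool in 0.1X MMR stood apart from the other 5.

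il10rb.L was the only 1 of 17 interleukin receptors without overlap between media, against a share of 9.77% of all tested genes. It encodes the chain shared by receptors of interleukin 10 and interleukin 22, and lies on chromosome 2L at 14134046 to 14147488. It had 9.44, 9.58 and 9.16 CPM in 0.75X MMR against 7.85, 7.97 and 7.45 CPM in 0.1X MMR. Levels within a medium differed by less than counting error, since 57, 54 and 56 counts stood behind those in 0.75X MMR against 55, 49 and 37 counts behind those in 0.1X MMR. The log2 fold change of 0.27 ± 0.16 (SE) had an unadjusted p of 0.109 by edgeR and an FDR of 1.00. Its homeolog il10rb.S had 3.31, 6.21 and 5.24 CPM in 0.75X MMR against 5.0, 3.58 and 4.43 CPM in 0.1X MMR, with overlap. il1r2.L, a decoy that binds interleukin 1 without signalling, had 20, 24 and 28 counts in 0.75X MMR against 35, 9 and 9 counts in 0.1X MMR, so that a single pool in 0.1X MMR was above all of 0.75X MMR. The signalling receptor il1r1.S had 6.41 ± 1.7 CPM in 0.75X MMR against 6.06 ± 0.90 CPM in 0.1X MMR (SD, n = 3 each). il17ra.S, with the largest log2 fold change of all members, 0.61 ± 0.42 (SE), had 11.32, 15.23 and 16.47 expected counts in 0.75X MMR against 15.26, 3.66 and 9.34 in 0.1X MMR, which overlap.

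Levels of the media overlapped in all 21 members grouped by a TNF symbol, which are ligands, receptors and induced proteins. Of all tested genes 9.77% had no overlap. The 21 rows are too few to be set apart from this share, and they were not tested as a group. The overlap holds for members only. The TNF gene itself, tnf.S, is outside the name rule, and tnfsf10.S fell below the count limit. Both had higher CPM in all pools of 0.75X MMR than in those of 0.1X MMR, and values of tnf.S are given below. Among the ligands, all of few reads, tnfsf10l.L (a TRAIL-like ligand by its name) had 21, 18 and 29 counts in 0.75X MMR against 25, 15 and 17 counts in 0.1X MMR. tnfsf15.L, a ligand of endothelial cells in mammals, had 6, 21 and 12 counts in 0.75X MMR against 16, 9 and 8 counts in 0.1X MMR, and the largest coefficient of biological variation of the members by edgeR's estimate. tnfsf15.S had 20, 10 and 18 counts in 0.75X MMR against 24, 11 and 13 counts in 0.1X MMR. Intervals of the log2 fold change were -0.32 to 0.88 for tnfsf10l.L, -0.68 to 1.24 for tnfsf15.L and -0.71 to 0.77 for tnfsf15.S. Each leaves an increase of 1.5-fold undecided, and the parts of depth and of spread between pools in this were not separated.

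Of the 10 TNF receptors, 4 had a log2 fold change above 0 and 6 below. tnfrsf19 (TROY), a receptor of neural and epithelial progenitors, was the most read, with 20.5, 22.4 and 18.8 CPM for tnfrsf19.L in 0.75X MMR against 21.6, 20.0 and 24.6 CPM in 0.1X MMR. tnfrsf19.S had 23.2, 21.3 and 17.0 CPM in 0.75X MMR against 18.0, 21.6 and 19.7 CPM in 0.1X MMR. tnfrsf21 (death receptor 6) had 12.6 ± 0.87 CPM in 0.75X MMR against 13.2 ± 3.2 CPM in 0.1X MMR for its L copy, and 6.52 ± 0.29 CPM in 0.75X MMR against 6.19 ± 0.48 CPM in 0.1X MMR for its S copy (SD, n = 3 each). The main receptor of TNF itself, tnfrsf1a, had log2 fold changes of -0.17 (L) and -0.11 (S), with intervals of -0.63 to 0.29 and -0.72 to 0.49.

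The TNF-induced proteins are grouped by name and not by shared function. tnfaip1.L, an adaptor of a ubiquitin ligase, had 51.7, 47.0 and 50.7 CPM in 0.75X MMR against 55.8, 50.3 and 52.1 CPM in 0.1X MMR. tnfaip8l2.L, a regulator of immune cell signalling in mammals, had 15.7, 10.5 and 13.7 CPM in 0.75X MMR against 13.3, 9.27 and 10.9 CPM in 0.1X MMR. tnfaip8.L had 9.94, 8.52 and 9.16 CPM in 0.75X MMR against 11.0, 8.95 and 6.24 CPM in 0.1X MMR. All 3 overlap between media. tnfaip3.S, which encodes A20, the ubiquitin-editing inhibitor of NF-kB, had 12, 9 and 15 counts in 0.75X MMR against 17, 12 and 7 counts in 0.1X MMR. tnfaip6.S, for a hyaluronan-binding secreted protein, had the most negative log2 fold change, -0.40 ± 0.46 (SE), from 8, 8 and 12 counts in 0.75X MMR against 22.03, 5 and 11 counts in 0.1X MMR.

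**Figure D3:**
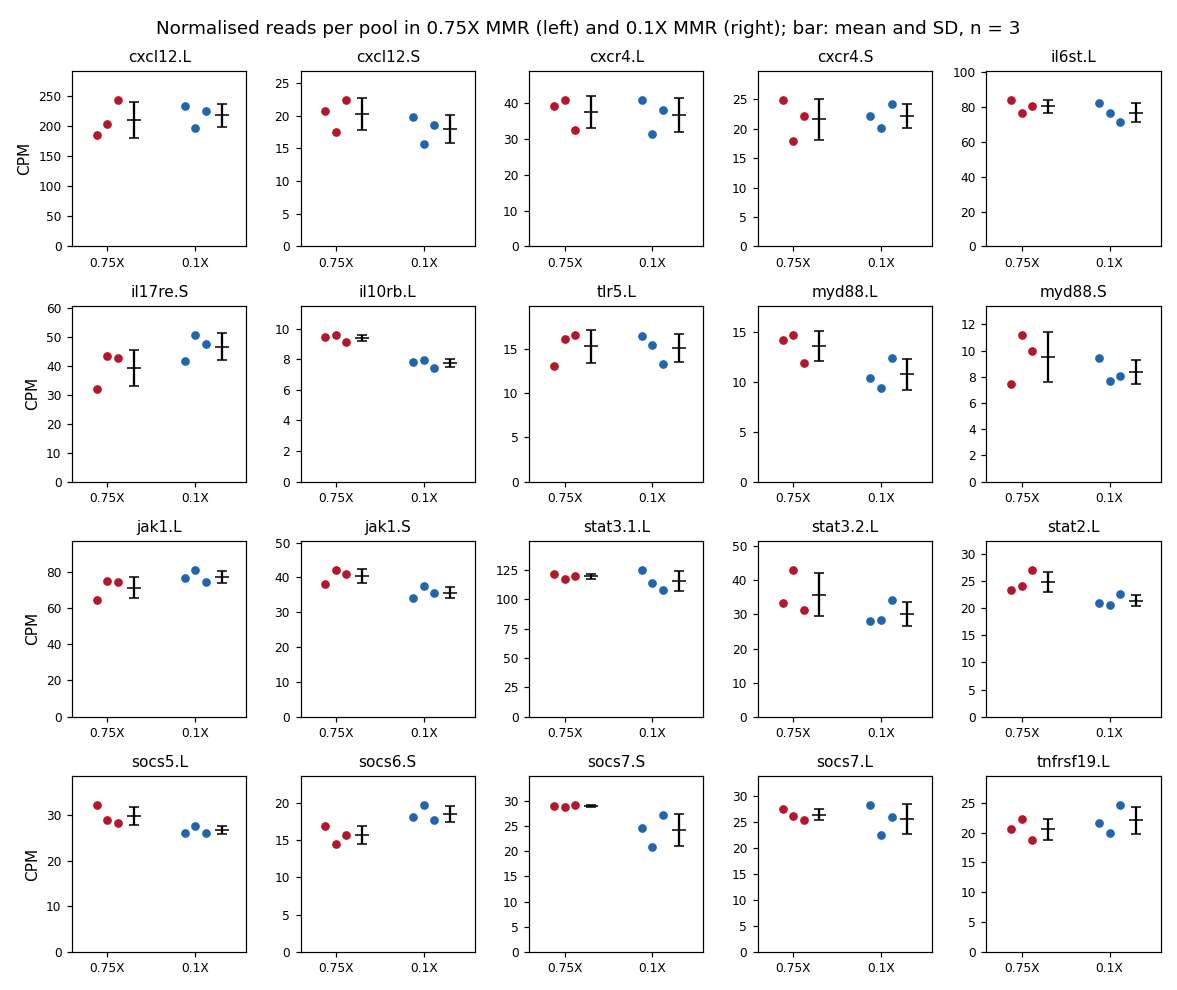
CPM (y axis, from 0) of 20 members in each pool, 0.75X MMR in red on the left and 0.1X MMR in blue on the right of each panel. Black bars are the mean and SD (n = 3). Red and blue points do not overlap for il10rb.L, jak1.S, stat2.L, socs5.L, socs6.S and socs7.S, of which socs6.S is lower in 0.75X MMR.

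myd88.L, the copy of the adaptor gene on chromosome 6L (11150714 to 11163219), was 1 of the 2 members with an unadjusted p under 0.05. It had 14.2, 14.7 and 11.9 CPM in 0.75X MMR against 10.4, 9.44 and 12.5 CPM in 0.1X MMR. The third pool of each medium broke the order, the one in 0.1X MMR being above the one in 0.75X MMR. This gave a log2 fold change of 0.35 ± 0.16 (SE), or 1.27-fold, with a 95% interval of 1.01-fold to 1.6-fold, an unadjusted p of 0.0426 and an FDR of 1.00 by edgeR. The homeolog myd88.S had 7.45, 11.2 and 9.98 CPM in 0.75X MMR against 9.42, 7.65 and 8.05 CPM in 0.1X MMR, with a log2 fold change of 0.18 ± 0.19 (SE). Reads of the copies were divided by estimate, and with both added up the log2 fold change was 0.28 ± 0.12 (SE), with an unadjusted p of 0.0419 and an FDR of 1.00 by edgeR. In bulk samples a change in the number of expressing cells and a change in RNA per cell cannot be told apart. Of 30 tested rows of myeloid markers, 20 had a log2 fold change above 0 and 10 below, and 1 (lcp1.S, 0.53 ± 0.20 SE) had an unadjusted p under 0.05. The summed level of the list was 350.8 to 472 CPM in 0.75X MMR against 351 to 509 CPM in 0.1X MMR, so that the ranges overlap, and its part in the level of myd88.L was not tested.

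Among rows matched by symbol, the only Toll-like receptor above the count limit was tlr5.L, the sensor of bacterial flagellin. It had 13.1, 16.1 and 16.5 CPM in 0.75X MMR against 16.4, 15.5 and 13.3 CPM in 0.1X MMR. These are nearly the same 3 levels in both media, and the log2 fold change of 0.0085 had an interval of -0.29 to 0.31. At the end of the chain, nfkb1.L had 6.79, 8.52 and 5.73 CPM in 0.75X MMR against 4.85, 8.30 and 6.84 CPM in 0.1X MMR. nfkb2.S had 18.5, 24.0 and 23.1 CPM in 0.75X MMR against 24.6, 22.9 and 22.9 CPM in 0.1X MMR. These genes encode the precursors p105 and p100 of NF-kB subunits, and all 4 of their rows overlapped between media. nfkb1.S had a log2 fold change of 0.08 ± 0.28 (SE) and nfkb2.L of 0.06 ± 0.17 (SE).

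The 2 copies of jak1, the kinase of gp130 and of interferon receptors, had fold changes of opposite sign. jak1.L had 64.4, 74.7 and 74.1 CPM in 0.75X MMR against 76.5, 80.7 and 74.3 CPM in 0.1X MMR. jak1.S had 38.3, 42.1 and 40.9 CPM in 0.75X MMR against 34.1, 37.4 and 35.4 CPM in 0.1X MMR, and its pools do not overlap. The log2 fold changes were -0.12 ± 0.09 (SE) and 0.18 ± 0.09 (SE), with unadjusted p of 0.199 and 0.0637 by edgeR and an FDR of 1.00 for both. With both copies added up it was -0.02. jak2, the kinase of several hormone and cytokine receptors, had 23.6 ± 3.1 CPM in 0.75X MMR against 23.3 ± 1.2 CPM in 0.1X MMR for jak2.L, and 16.9 ± 2.8 CPM in 0.75X MMR against 18.0 ± 1.9 CPM in 0.1X MMR for jak2.S (SD, n = 3 each). jak3.L, the kinase of lymphocyte receptors, was below the count limit with 9, 5 and 4 counts in 0.75X MMR against 6, 7 and 3 counts in 0.1X MMR. The lymphoid markers, a separate list, summed to 3.37 to 5.47 CPM in 0.75X MMR against 3.62 to 6.67 CPM in 0.1X MMR, with 2 of 16 rows having enough reads to be tested.

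STAT factors were read in number, and their levels kept within narrow limits. stat3.1.L had 121, 117 and 120 CPM in 0.75X MMR against 125, 114 and 107 CPM in 0.1X MMR, so that all 3 pools in 0.75X MMR lay within the span of 0.1X MMR. Its interval of -0.13 to 0.23 is the narrowest among the members. stat3.2.L, a second stat3 gene 2.46 kb away on chromosome 9_10L, had 33.3, 42.9 and 31.3 CPM in 0.75X MMR against 28.0, 28.3 and 34.2 CPM in 0.1X MMR, with a log2 fold change of 0.25 ± 0.13 (SE) and an unadjusted p of 0.0662 by edgeR. The next gene, stat5b.L, stands 40.5 kb further and had 36.8, 31.1 and 31.4 CPM in 0.75X MMR against 35.5, 35.0 and 30.8 CPM in 0.1X MMR. The 3 neighbours thus did not share a direction.

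stat2.L, a factor of interferon signalling, did not overlap between media. It had 23.4, 24.1 and 27.0 CPM in 0.75X MMR against 21.0, 20.7 and 22.5 CPM in 0.1X MMR, with a log2 fold change of 0.22 ± 0.11 (SE), an unadjusted p of 0.0642 and an FDR of 1.00 by edgeR. stat6.L, the factor of interleukin 4 signalling, had 33.5, 31.9 and 30.9 CPM in 0.75X MMR against 32.8, 34.5 and 35.4 CPM in 0.1X MMR. It had the smallest spread between pools of all members by edgeR's estimate.

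Media did not overlap in 3 of the 13 SOCS members, 2 higher and 1 lower in 0.75X MMR. This is a larger share than the 9.77% of all tested genes in either direction, but it rests on few rows. The family was not tested against other genes. socs7.S, on chromosome 9_10S at 2538122 to 2549431, had 29.0, 28.7 and 29.1 CPM in 0.75X MMR against 24.7, 20.8 and 27.2 CPM in 0.1X MMR. The pools in 0.75X MMR differed from each other by less than 1 CPM, with a coefficient of variation of 0.657% where counting error alone gives 7.94%, and the spread within 0.1X MMR was larger. The log2 fold change was 0.26 ± 0.11 (SE), or 1.2-fold, with a 95% interval of 1.02-fold to 1.42-fold, an unadjusted p of 0.034 and an FDR of 1.00 by edgeR. Its homeolog socs7.L had 27.7, 26.3 and 25.5 CPM in 0.75X MMR against 28.3, 22.6 and 26.0 CPM in 0.1X MMR, which overlap, with a log2 fold change of 0.05 ± 0.11 (SE). SOCS7 binds cytoskeletal and adaptor proteins besides the parts of insulin and prolactin signalling.

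socs5.L, whose protein acts on EGF receptor and interleukin 4 signalling in mammals, had 32.1, 28.9 and 28.3 CPM in 0.75X MMR against 26.1, 27.7 and 26.2 CPM in 0.1X MMR. The lowest pool in 0.75X MMR was above the highest in 0.1X MMR, and the log2 fold change was 0.16 ± 0.10 (SE). socs5.S had 30.5, 29.1 and 28.3 CPM in 0.75X MMR against 30.0, 33.2 and 27.6 CPM in 0.1X MMR. socs6.S was the only member lower in all 3 pools in 0.75X MMR, at 16.9, 14.6 and 15.7 CPM, than in all of 0.1X MMR, at 18.1, 19.7 and 17.7 CPM. Its log2 fold change was -0.24 ± 0.12 (SE), with an unadjusted p of 0.0721 and an FDR of 1.00 by edgeR, and its homeolog socs6.L had -0.05 ± 0.14 (SE). The STAT3-induced inhibitor socs3.S was barely above the count limit, with 10, 12 and 11 counts in 0.75X MMR against 14, 8 and 7 counts in 0.1X MMR. A related gene, socs3l.L, had 24, 47 and 38 counts in 0.75X MMR against 37, 32 and 18 counts in 0.1X MMR.

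Both homeologs were members for 28 genes, and the division of reads between them differed little between the 2 media. The share of the L copy in the counts of a pair, which compares a pair with itself and leaves the lengths of the copies out of account, ranged from 29.2% for il1rap to 91.8% for cxcl12, with a median of 61.8%. It was above 50% in 20 pairs and below in 8. Between media the mean share differed by a median of 2.16 and at most 5.06 percentage points, the largest in socs3l. The shares of the 3 pools in each medium did not overlap in 4 of 28 pairs (14.3%), against 10.4% of 6283 such pairs in the whole table. For jak1 the L copy took 62.8%, 63.9% and 64.5% in 0.75X MMR against 69.1%, 68.4% and 67.8% in 0.1X MMR. This is a difference of -4.70 percentage points with an SD of 0.871 in 0.75X MMR against 0.682 in 0.1X MMR (n = 3 each). The other pairs, as means ± SD, were socs5 (50.4% ± 0.793 in 0.75X MMR against 46.8% ± 1.57 in 0.1X MMR), socs7 (47.8% ± 1.09 in 0.75X MMR against 51.5% ± 2.28 in 0.1X MMR) and cxcl12 (91.2% ± 1.12 in 0.75X MMR against 92.4% ± 0.235 in 0.1X MMR). With 3 against 3 pools an exact permutation test cannot give a two-sided p below 0.10, so that none was applied. Counts of jak1, socs5 and socs7 were partly divided by estimate, as in 42 of the 79 members, and an error of that division would move both copies in opposite directions.

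**Figure D4:**
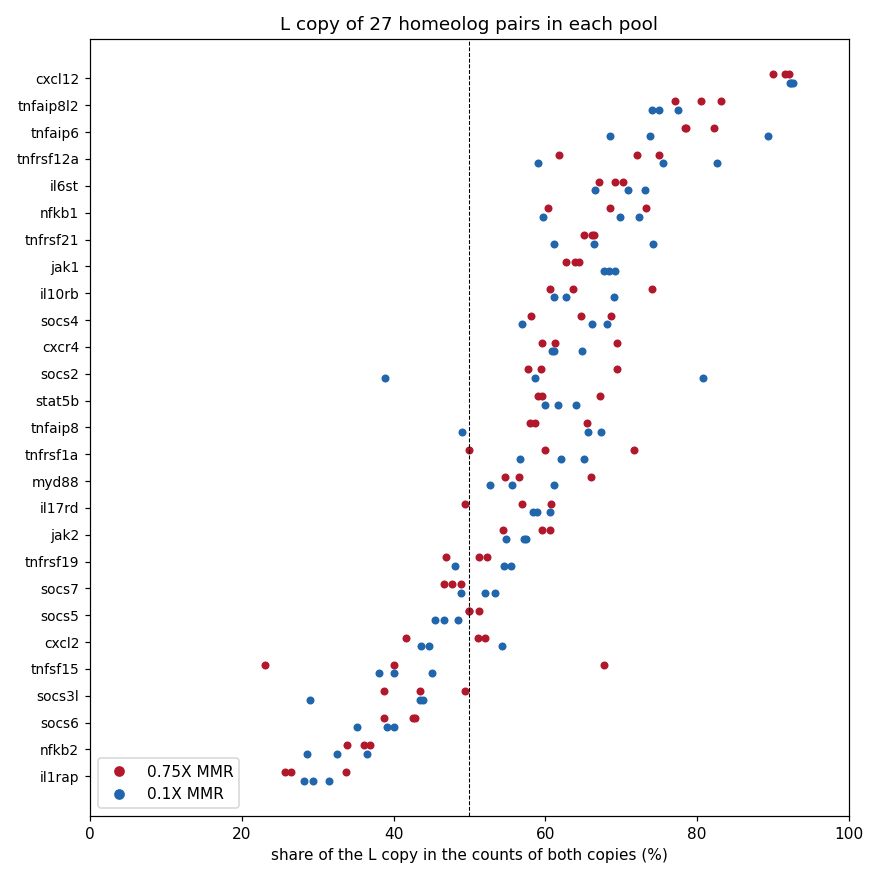
Share of the L copy in the counts of both copies (x axis, %) of 27 of the 28 pairs of members, in order of the share over all pools, with the 3 pools in 0.75X MMR above and the 3 in 0.1X MMR below in each row. The dashed line marks 50%. Shares over all pools run from 29.2% to 91.8%. Those of single pools run from 23.1% (tnfsf15, first pool in 0.75X MMR) to 92.7% (cxcl12, second pool in 0.1X MMR). In jak1 the 3 pools in 0.75X MMR all lie left of those in 0.1X MMR.

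Members with more reads mostly had narrower intervals, and the parts of depth and of spread between pools in this were not separated. The 95% interval of the log2 fold change lay within ±1, that is less than 2-fold in either direction, in 68 of 79 members (86.1%), against 80.4% of all tested genes. All tested genes include rows with a mean count under 10, which no member has, so that these 2 shares are not of like rows. The interval lay within ±0.5 in 37 of the 45 members with mean counts of at least 50 and in 2 of the 34 with fewer. The median SE was 0.119 in the 45 and 0.285 in the 34. Intervals that reached beyond ±1 belonged to 11 members, among them cxcl8.L, il1r2.L, il17ra.S, socs3.S, tnfsf15.L and tnfaip6.S, for which these data do not exclude a 2-fold difference. Spread between pools beyond counting error, as a coefficient of biological variation by edgeR, was 5.94% (stat6.L) to 26.6% (tnfsf15.L), with a median of 9.36% for members and 9.33% for all tested genes. The coefficient of variation of CPM was larger in 0.75X MMR for 42 members and in 0.1X MMR for 37, with medians of 13.0% in 0.75X MMR against 11.7% in 0.1X MMR.

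**Figure D5:**
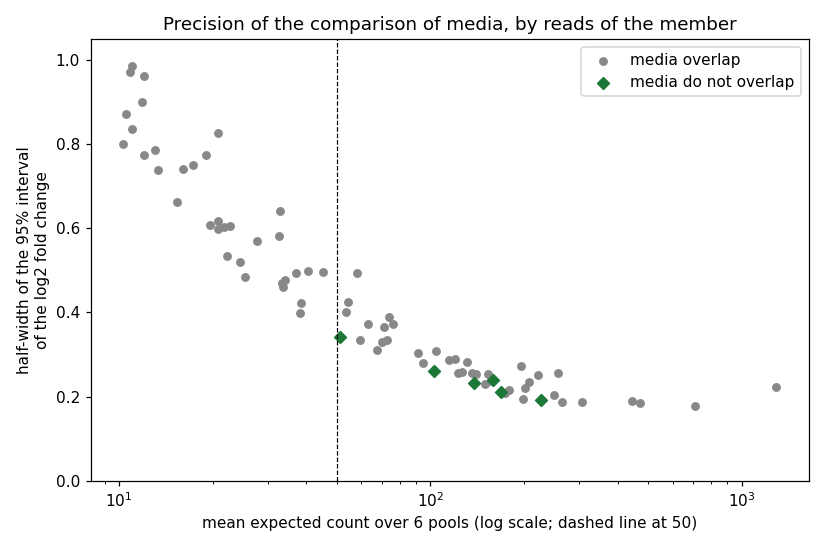
Half-width of the 95% interval of the log2 fold change (y axis) of the 79 members against their mean expected count over 6 pools (x axis, log scale, dashed line at 50). Diamonds are the 6 members whose media do not overlap, all with a mean count above 50, and the widest intervals belong to members with 10.3 to 20.8 counts.

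Some rows are uncertain for reasons of annotation. il17ra.S lies on chromosome 3L and tnfrsf10b.L on 3S, against their suffixes. 4 members overlap another annotated gene, among them stat3.1.L with a lncRNA over 6161 bases and tnfaip8l2.L, whose whole span lies within that of LOC121397224. The library kit keeps the strand, but whether strand was used in counting is not given in the sources used here.

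Partners of the same pathways, from lists of genes outside the name rule, gave the same number of calls, with 0 of 134 tested rows at an FDR under 0.05 by edgeR. At an unadjusted p under 0.05 there were 3, or 2.24%, against 4.39% of all tested genes. In the list of Toll-like receptor and NF-kB adaptors 0 of 51 tested rows reached this p, with 17 log2 fold changes above 0 and 34 below. Among JAK-STAT partners, 14 of 39 log2 fold changes were above 0 and 25 below. At this p, 0 rows were higher and 2 lower in 0.75X MMR. These were pias4.L, an inhibitor of STATs and SUMO ligase (-0.22 ± 0.09 SE), and clcf1.L, a gp130 ligand (-0.47 ± 0.20 SE). Among 24 rows of TNF and death receptor partners, 19 log2 fold changes were above 0 and 5 below. At this p, 0 rows were lower and 1 was higher. This was tnf.S, the TNF gene itself, which the name rule does not catch, with 10, 12 and 18 counts in 0.75X MMR against 7, 9 and 4 counts in 0.1X MMR. The media do not overlap, and its log2 fold change was 1.01 ± 0.41 (SE), with an FDR of 1.00. Atypical chemokine receptors (3 rows tested) and output genes such as fos and myc (17 rows) gave 0.

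Of 75 further rows that only the product name ties to these families, 1 stood closer to the threshold than any member, and is named after its values had been seen. LOC108697813, annotated as toll-like receptor 13, a sensor of bacterial ribosomal RNA in mouse, had 66, 53 and 65 counts in 0.75X MMR against 46, 29 and 27 counts in 0.1X MMR. This is 10.9, 9.41 and 10.6 CPM in 0.75X MMR against 6.57, 4.72 and 5.43 CPM in 0.1X MMR, without overlap. The log2 fold change was 0.88 ± 0.18 (SE), with an interval of 0.48 to 1.27 and an FDR of 0.231 by edgeR. In this group of 75 rows, 2 were higher and 1 lower in 0.75X MMR at an unadjusted p under 0.05. Such a p was reached by 4.39% of all tested genes. Log2 fold changes were above 0 in 35 of the 75 rows and below in 40, and 0 rows passed the FDR limit.

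Markers of the tissues of a whole embryo were read in every pool. Epidermis markers summed to 5080.6 to 5286 CPM in 0.75X MMR against 5155 to 5344 CPM in 0.1X MMR, muscle markers to 5774 to 7600.0 CPM in 0.75X MMR against 6664 to 6835 CPM in 0.1X MMR and neural markers to 582 to 626 CPM in 0.75X MMR against 579.5 to 634 CPM in 0.1X MMR. With those of the heart, 157 to 184 CPM in 0.75X MMR against 175 to 188 CPM in 0.1X MMR, 0 rows of these lists had an unadjusted p under 0.05. Erythroid markers summed to 107 to 121 CPM in 0.75X MMR against 92.2 to 125 CPM in 0.1X MMR. Of their 7 tested rows, 6 had a log2 fold change above 0 and 1 below. In this list gata1.L and alas2.L had an unadjusted p under 0.05, both higher in 0.75X MMR, with an FDR of 1.00. Such a p was reached by 4.39% of all tested genes, and the list was not tested as a group. Single genes for pronephros (pax8) and lens (crybb1) gave 0 rows with such a p. The 2 rows of pax8 summed to 6.62 to 7.63 CPM in 0.75X MMR against 7.85 to 8.85 CPM in 0.1X MMR, without overlap. Both had a log2 fold change below 0. Those of crybb1 summed to 47.6 to 56.3 CPM in 0.75X MMR against 47.3 to 56.3 CPM in 0.1X MMR. Of all tested genes, taken singly, 9.77% had no overlap.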

How the data were processed

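The authors trimmed reads with fastp, aligned them with STAR to genome version 10.1 and estimated expected counts per gene with RSEM. The deposited expected counts are not normalized, and 42.5% of values above 0 are not whole. The second deposited file holds log2 CPM of 24661 genes that the authors normalized with limma and adjusted for surrogate variables. It served here for product names and for the 2 surrogate variables, and its values were not tested. All columns were matched to a sample (0 were left without one).

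Counts were rounded, and a gene entered the test if its CPM exceeded 0.6 in 3 or more samples (28075 of 42638, with all 79 members). Library sizes were normalized by TMM in edgeR 4.0.16. The test was edgeR's quasi-likelihood test, two-sided, with the medium as the only term and Benjamini-Hochberg adjustment over all tested genes. CPM are scaled to the counts of tested genes. Alternatives were DESeq2 1.42.0, RLE factors, no filter, limma-voom (limma 3.58.1) with and without surrogate variables, a replicate block, homeologs added up and each sample left out. The functions were tested on simulated data. Scripts ran in R 4.3.3 and Python 3.11.15. Gene positions are those of RefSeq for the same genome version, in which all 79 members have an entry.

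Members and lists were chosen with earlier results of these data known. Genes named by rule are members past the FDR limit, up to 12 with an unadjusted p under 0.05, the 3 with the most CPM in each family, 9 fixed genes (cxcl12, cxcr4, il6st, jak2, stat3, socs3, myd88, nfkb1, tlr5), the 5 with the largest and the 5 with the smallest dispersion among those with mean counts of at least 50, and homeologs of all these. A further part of the rule, on homeologs per kb, was not applied, since transcript lengths were not used. Other names (stat2.L, socs6, il17ra.S, il17rc.S, il1r2.L, il1r1.S, tnfaip6.S, tnfaip3.S, cxcl8.L, cxcl2, socs3l.L, tnfrsf1a, all rows below the count limit and all genes outside the name rule) were chosen after their values were seen. The values of 1 further gene named by the rule are not reported here. Sequences were not used here.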

Additional observations from a re-analysis of the deposited data

How the results depend on the processing

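The number of members past an FDR of 0.05 was 0 under all 13 alternatives. The number with an unadjusted p under 0.05 (2) was 0 by DESeq2, 4 without the filter on low counts, 4 by limma-voom with 2 surrogate variables (il17re.S, myd88.L, socs7.S and stat3.2.L), 1 with homeologs added up (myd88) and 1 to 4 with a pool left out. Over all genes in the same fits, the share was 1.49% by DESeq2, 4.37% without the filter and 4.95% with 2 surrogate variables. It was 4.26% with homeologs added up and 3.90% to 5.03% with a pool left out. Of the 6 fits with a pool left out, socs7.S kept a p under 0.05 in 2 (without the first or the third pool in 0.1X MMR) and myd88.L in 2 (without the third pool of either medium). il17re.S, above this p in the main fit, reached it more often. It did so without the second or the third pool in 0.75X MMR and without the first pool in 0.1X MMR. stat3.2.L reached it without the third pool of either medium. Members whose media did not overlap (6) numbered 10 to 15 with a pool left out, which by construction compares fewer pools. The share over all tested genes was not computed for these fits, so that the rise says nothing about the members. The median log2 fold change of members (0.05) was 0.025 to 0.11, the highest without the first pool in 0.1X MMR and the lowest without the second.

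With a replicate block 2 members had an unadjusted p under 0.05 (il17re.S and socs7.S), against 3.55% of all tested genes. In that fit 0 members had an FDR under 0.05, and the median log2 fold change of members was 0.05. The labels do not say whether same-numbered pools are paired. Deviations of same-numbered pools correlated at -0.02, -0.03 and -0.10 over 28075 genes, and those of other pools at -0.04 to 0.07. Counting error enters these deviations, so that the correlations cannot tell whether pools share parents.

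Of 780 values of 60 named members under the alternatives, 722 kept their sign and 58 changed it, all in members with a 95% interval that includes 0, and the cause was not tested. With homeologs added up, the sum had the other sign than cxcl12.S (sum -0.033), cxcr4.S (sum 0.0073), jak1.S (sum -0.018), jak2.L (sum -0.023), nfkb2.L (sum -0.049), socs5.S (sum 0.053), tnfaip8l2.S (sum 0.18), tnfrsf19.S (sum -0.024) and tnfrsf21.S (sum -0.0062). With a pool left out, signs changed in cxcl12.L (-0.17 to 0.035), cxcl14.L (-0.0026 to 0.067), cxcl2.S (-0.058 to 0.15), cxcr4.L (-0.073 to 0.12), cxcr4.S (-0.14 to 0.087), il10rb.S (-0.024 to 0.39), il11ra.L (-0.034 to 0.092), il1r1.S (-0.10 to 0.28), jak2.L (-0.081 to 0.11), jak2.S (-0.19 to 0.045), nfkb1.L (-0.12 to 0.28), nfkb1.S (-0.029 to 0.26), nfkb2.L (-0.062 to 0.24), socs5.S (-0.11 to 0.021), socs6.L (-0.10 to 0.0045), socs7.L (-0.039 to 0.13), stat5b.L (-0.12 to 0.0078), stat5b.S (-0.085 to 0.047), tlr5.L (-0.066 to 0.11), tnfaip3.S (-0.13 to 0.25), tnfaip6.S (-0.79 to 0.11), tnfaip8.L (-0.12 to 0.26), tnfaip8l2.S (-0.26 to 0.14), tnfrsf19.S (-0.047 to 0.17), tnfrsf1a.S (-0.25 to 0.10), tnfrsf21.L (-0.21 to 0.14), tnfsf15.L (-0.29 to 0.63) and tnfsf15.S (-0.19 to 0.31).

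Members with under 50 counts on average had a median SE of 0.285, against 0.119 in those with at least 50. Their interval lay within ±0.5 in 2 of 34. In most of them a log2 fold change of 0.5 is thus not excluded in at least 1 direction. The parts of depth and of spread between pools in this were not separated.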
